A study of Homo sapiens with 9 samples.

Results

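The NALCN sodium leak channel complex was followed in HEK293-derived human cells through the mRNAs of its 4 members, NALCN, NALF1, UNC79 and UNC80. The set was selected on NALCN, whose mRNA was nearly lost in both derived lines, and the other 3 members were added because their proteins belong to the same channel complex. All 4 members were found among the 60648 genes of the count table. Of the 37838 genes with a count in any library, 19473 passed the expression filter and were tested, and 3 of the 4 members were among them, since NALF1 was too low. UNC80 passed the filter through its counts in the derived lines.

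The study compared 3 cell lines, with 3 RNA-seq libraries each. T-REx is the parental HEK293-derived line and carries no added SMN1/2 transcript. TC4-2A is a stable line made from it that expresses, on induction with doxycycline (Dox), a circular RNA built of exons 2A to 4 of SMN1/2, and TL4-2A is the matching line for the linear transcript of those exons. Cells of all 3 lines, T-REx included, were grown with Dox for 96 h before RNA was taken, so Dox is common to every group and no library without it was analysed here. Whether TC4-2A and TL4-2A are single clones is not given in the sources used here, and with 1 line per transcript the transcript and the line that carries it cannot be told apart.

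NALCN forms the pore of a channel that lets sodium leak into the cell at rest, and in neurons this current sets how close the resting membrane potential lies to the firing threshold. NALF1 (FAM155A) is a membrane protein that binds the outer face of the pore and helps the channel reach the cell surface. UNC79 and UNC80 are very large cytoplasmic proteins that bind each other and NALCN and are needed for a working, regulated channel. HEK293 cells are a common host for expressing these subunits from plasmids.

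The libraries held from 16561680 to 21491977 counts, and 3 counts, taken as the floor, correspond to between 0.139 and 0.183 CPM. CPM are counts per library scaled to a common total after TMM adjustment of the library sizes. Reads of SMN1 and SMN2 together lay between 53.6 and 55.6 CPM in T-REx, between 91.6 and 97.5 CPM in TC4-2A and between 61.5 and 64.1 CPM in TL4-2A cells. Reads of the added transcripts can fall in these sums, so the sums do not measure the cells' own SMN1/2 mRNA alone. All 8 markers of HEK293 cells (VIM, KRT8, KRT18, NEFL, NEFM, PAX2, LHX1 and EYA1) were tested, and their summed level was 1028 to 1064 CPM in T-REx, 780 to 814 CPM in TC4-2A and 813 to 826 CPM in TL4-2A cells. Summed leukocyte, endothelial and hepatocyte markers stayed at or below 0.727 CPM in every library, and muscle markers at or below 0.914 CPM. Fibroblast markers summed to 11.1 to 11.3 CPM in T-REx, 9.04 to 9.89 CPM in TC4-2A and 7.86 to 8.11 CPM in TL4-2A cells, nearly all of it COL1A1, while DCN and LUM were not abundant enough to be tested. COL1A1 was called lower in both derived lines, at -0.28 (adjusted p = 0.0163) and -0.48 (adjusted p = 7.02e-05 in edgeR). The 4 neuron markers summed to 12.3 to 13.5 CPM in T-REx, 13.3 to 15.0 CPM in TC4-2A and 13.1 to 14.0 CPM in TL4-2A cells. Within that sum SNAP25 was higher in both lines, at 0.30 (adjusted p = 0.0330) and 0.43 (adjusted p = 0.00134 in edgeR). RBFOX3 was lower in TL4-2A cells, at -0.52 (adjusted p = 0.00697 in edgeR), and not called in TC4-2A cells. SYN1 and SLC17A7 were called in neither line.

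NALCN and NALF1 lie on the same chromosome and the other members on chromosomes of their own. NALCN (ENSG00000102452.18) spans 362.7 kb of the minus strand at chr13:101053776-101416508 in GRCh38, with 18 annotated transcripts. NALF1 (ENSG00000204442.4) covers 704 kb of the minus strand at chr13:107163510-107867496 and has 1 annotated transcript. UNC79 (ENSG00000133958.13) spans 374.7 kb of the plus strand at chr14:93333219-93707876, and UNC80 (ENSG00000144406.19) 227.5 kb of the plus strand at chr2:209771832-209999300. They have 8 and 10 annotated transcripts.

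The promoters of the member that was lost and of UNC79, a tested member called in no comparison, are shown, to give the sequence context of their start sites. Each holds the 250 bases before the start site and the 50 bases after it, from RefSeq (GRCh38.p14), written 5′ to 3′ on the strand of the gene, with CpG dinucleotides in capitals. The NALCN window is chr13:101416459-101416758 on the minus strand and the UNC79 window is chr14:93332969-93333268 on the plus strand.
NALCN: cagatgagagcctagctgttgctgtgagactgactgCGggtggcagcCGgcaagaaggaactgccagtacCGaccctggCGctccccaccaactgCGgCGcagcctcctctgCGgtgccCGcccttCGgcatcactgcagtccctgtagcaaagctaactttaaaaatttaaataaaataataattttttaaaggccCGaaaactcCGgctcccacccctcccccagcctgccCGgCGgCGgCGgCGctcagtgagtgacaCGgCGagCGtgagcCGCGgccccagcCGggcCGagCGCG
UNC79: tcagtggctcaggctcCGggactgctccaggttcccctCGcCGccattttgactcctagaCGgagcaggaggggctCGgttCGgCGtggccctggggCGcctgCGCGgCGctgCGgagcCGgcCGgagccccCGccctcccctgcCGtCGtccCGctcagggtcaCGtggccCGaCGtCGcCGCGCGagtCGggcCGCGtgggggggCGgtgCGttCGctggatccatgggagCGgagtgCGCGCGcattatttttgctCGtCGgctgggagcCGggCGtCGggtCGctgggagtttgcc
The NALCN promoter held 25 CpG dinucleotides at 62.0% GC and the UNC79 promoter 41 at 73.3% GC, while NALF1 and UNC80 had 32 each. The UNC79 values are those of the start site that bounds the gene. RefSeq also has an UNC79 start 37 bases before it, with 41 CpG, and another 97720 bases downstream, with 21 CpG at 60.3% GC, and which start these cells use was not measured. The median over 34943 RefSeq promoters of the same length was 14, and 96.0% of them held at least 1. At least as many as in NALCN were found in 31.9% of promoters, as in NALF1 or UNC80 in 18.8%, and as in UNC79 in 6.70%. The UNC79 window also holds the annotated start of BTBD7, which runs the opposite way and begins 0.127 kb from UNC79. DNA methylation was not measured in these cells, and the CpG counts describe sequence only.

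NALCN, the pore, was readily detected in T-REx cells and nearly lost in both derived lines. Its level in T-REx cells was 23.7, 23.0 and 22.8 CPM (447, 496 and 437 counts), in TC4-2A cells 0.699, 0.855 and 0.537 CPM (14, 18 and 10 counts), and in TL4-2A cells 0.908, 1.497 and 1.71 CPM (15, 28 and 28 counts). No library of either derived line came near the lowest T-REx library, and every one of them stayed above the floor. The means were 23.2 ± 0.478, 0.697 ± 0.159 and 1.37 ± 0.414 CPM (SD, n = 3 each), so TC4-2A cells kept 3.01% and TL4-2A cells 5.92% of the T-REx level. In other words, NALCN mRNA was 33.2-fold lower in TC4-2A and 16.9-fold lower in TL4-2A cells. As log2 fold changes the differences were -5.03 and -4.07, the 23rd and the 24th lowest of 19473 genes. These differences chose the gene, so they are given without a test, and both use the same T-REx libraries. Most of the 8 HEK293 markers moved the same way at a much smaller scale. Their median log2 fold change was -0.32 (TC4-2A) and -0.25 (TL4-2A). Called lower by edgeR were 6 (TC4-2A) and 5 (TL4-2A) of the 8, and 0 were called higher. Of all genes tested, 14.6% (TC4-2A) and 22.5% (TL4-2A) were called lower, and 14.2% and 21.9% higher. The exception in sign was PAX2, at 0.24 (TC4-2A) and 0.03 (TL4-2A), which was called in neither line. What part these markers had in the NALCN result was not tested. In a bulk library, fewer NALCN-expressing cells and less NALCN mRNA per cell cannot be told apart.

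The residue of NALCN mRNA was not the same in the derived lines. The 3 TC4-2A libraries, between 0.537 and 0.855 CPM, all lay below the 3 TL4-2A libraries, between 0.908 and 1.71 CPM. The log2 difference of TC4-2A minus TL4-2A was -0.96 (standard error 0.27, 95% interval -1.503 to -0.418, adjusted p = 0.00436 in edgeR's quasi-likelihood test, adjusted over all genes tested). In this comparison 35.4% of all genes tested were called at an adjusted p under 0.05, 17.6% higher and 17.8% lower in TC4-2A cells. The call held under each of 15 other settings, with adjusted p from 0.000711 to 0.0412 in edgeR or DESeq2. It rests on 42 counts in TC4-2A cells (95% Poisson interval 30.3 to 56.8, for counting error only) against 71 in TL4-2A cells (55.5 to 89.6).

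**Figure D1:**
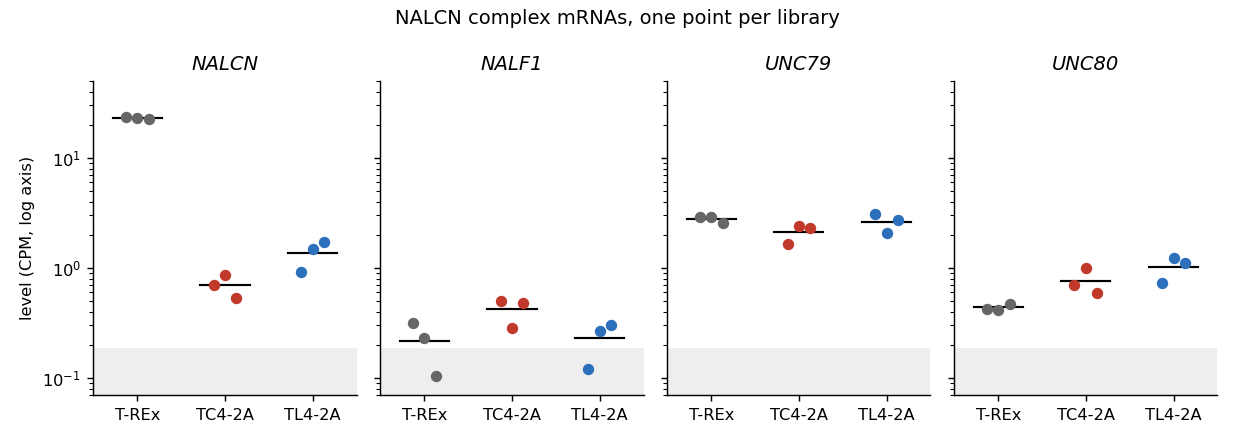
Level of each member in CPM on a log axis, with 1 point per library and a line at the mean of each cell line, and with levels under 3 counts of the smallest library shaded grey. NALCN drops from 22.8 to 23.7 CPM in T-REx cells to 0.537 to 1.71 CPM in the derived lines, UNC79 stays between 1.65 and 3.09 CPM, and UNC80 is lowest in the T-REx libraries.

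NALF1, the auxiliary subunit at the outer face of the pore, was near the detection limit in every line. It had 6, 5 and 2 counts in T-REx cells, 10, 6 and 9 counts in TC4-2A cells and 2, 5 and 5 counts in TL4-2A cells. The groups overlapped, although the highest libraries were TC4-2A libraries. The means were 0.218 ± 0.108 CPM in T-REx, 0.423 ± 0.120 CPM in TC4-2A and 0.231 ± 0.0971 CPM in TL4-2A cells (SD, n = 3 each). Summed counts were 13 (95% Poisson interval 6.92 to 22.2), 25 (16.2 to 36.9) and 12 (6.20 to 21.0). NALF1 could be fitted only without the expression filter. That edgeR fit put NALF1 at a log2 difference from T-REx of 0.93 for TC4-2A cells (95% interval -0.15 to 2.00, adjusted p = 0.341) and 0.08 for TL4-2A cells (-1.17 to 1.32, adjusted p = 1). With so few counts both intervals were wide, and a change of NALF1 within them could not be told from no change.

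UNC79, a large cytoplasmic subunit, kept 76.5% (TC4-2A) and 94.9% (TL4-2A) of its mean T-REx level. It had 2.92, 2.87 and 2.56 CPM in T-REx cells (55, 62 and 49 counts), 1.65, 2.42 and 2.31 CPM in TC4-2A cells (33, 51 and 43 counts), and 3.09, 2.09 and 2.74 CPM in TL4-2A cells (51, 39 and 45 counts). All TC4-2A libraries lay below all T-REx libraries, whereas the TL4-2A libraries overlapped both. The means were 2.78 ± 0.197, 2.13 ± 0.418 and 2.64 ± 0.509 CPM (SD, n = 3 each). Against T-REx, TC4-2A gave a log2 fold change of -0.39 (standard error 0.19, 95% interval -0.78 to 0.00, unadjusted p = 0.0505 and adjusted p = 0.131 in edgeR). Without the expression filter it was -0.39 (95% interval -0.75 to -0.02, unadjusted p = 0.0367 and adjusted p = 0.182 in edgeR). In TL4-2A cells it was -0.09 (standard error 0.19, 95% interval -0.47 to 0.30, adjusted p = 0.739 in edgeR), and without TL4-2A replicate 2 its sign turned, at 0.07. TC4-2A minus TL4-2A gave -0.30 (95% interval -0.70 to 0.11, adjusted p = 0.259 in edgeR). None of these comparisons passed the threshold, and the intervals leave room for a decrease of UNC79 in TC4-2A cells that is far smaller than the decrease of NALCN.

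UNC80, the partner of UNC79, was low in every line and had its lowest level in T-REx cells. It had 0.424, 0.417 and 0.470 CPM in T-REx cells (8, 9 and 9 counts), 0.699, 0.997 and 0.591 CPM in TC4-2A cells (14, 21 and 11 counts), and 0.727, 1.23 and 1.10 CPM in TL4-2A cells (12, 23 and 18 counts). Every library of both derived lines lay above every T-REx library, and the derived lines overlapped. The means were 0.437 ± 0.0284, 0.763 ± 0.210 and 1.02 ± 0.261 CPM (SD, n = 3 each). In TL4-2A cells the log2 fold change was 1.22 (standard error 0.35, 95% interval 0.51 to 1.93, adjusted p = 0.00451 in edgeR, 0.0354 in DESeq2). Because the expression filter admitted UNC80 only through the lines in which it was higher, that p is not support on its own. Fitted with every gene that had a count, without the filter, UNC80 gave 1.21 (95% interval 0.51 to 1.91, adjusted p = 0.00466 in edgeR). In TC4-2A cells it was 0.81 (standard error 0.36, 95% interval 0.08 to 1.54, adjusted p = 0.0921 in edgeR), which did not pass. The lines themselves differed by -0.41 for TC4-2A minus TL4-2A (95% interval -1.04 to 0.22, adjusted p = 0.328 in edgeR), so a larger effect in TL4-2A than in TC4-2A cells was not shown. The T-REx level of UNC80 rests on 26 counts in all (95% Poisson interval 16.98 to 38.1).

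The share of all genes called was large in both comparisons with T-REx. In TC4-2A against T-REx cells edgeR called 28.8% of the genes tested, 14.2% higher and 14.6% lower, and neither UNC79 nor UNC80 was called. In that filtered fit UNC80 alone had an unadjusted p under 0.05 (0.0317 in edgeR). Without the expression filter both did, UNC79 at 0.0367 and UNC80 at 0.0281 in edgeR. Neither was called there either (adjusted p = 0.182 and 0.149), and DESeq2 called neither. In TL4-2A against T-REx cells 44.3% of the genes tested were called, 21.9% higher and 22.5% lower, and UNC79 was not called. The call of UNC80 is not counted against these shares, since UNC80 entered the genes tested through its derived-line counts.

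**Figure D2:**
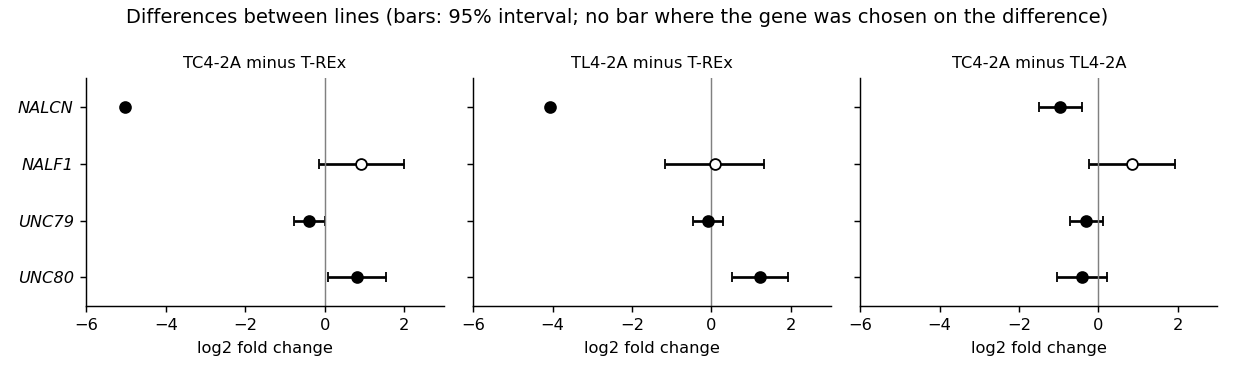
Log2 fold change (horizontal axis) of each member in the 3 comparisons, with bars for the 95% interval and open points for NALF1, which was fitted without the expression filter. NALCN is drawn without a bar against T-REx, at -5.03 and -4.07, because it was selected on these differences. Of the other members only UNC80 in TL4-2A cells (1.22) was called against T-REx. UNC80 passed the expression filter through its derived-line counts, so that call is not support on its own.

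The order of the members changed with the loss of NALCN. To compare genes, CPM were divided by the merged exon length of each gene (CPM per kb). In T-REx cells NALCN stood first with 1.19 ± 0.0246 CPM per kb (SD, n = 3), followed by UNC79 with 0.220 ± 0.0155, NALF1 with 0.0235 ± 0.0116 and UNC80 with 0.0223 ± 0.00145. NALF1 and UNC80 overlapped there, and the other neighbours in the order did not. NALCN made up 81.8% of the summed level per kb of the 4 members and was 5.42 times UNC79. With the longest annotated transcript as the length these values were 90.1% and 10.8 times. By merged exons it exceeded 25.9% of the tested genes, whose median was 3.66 CPM per kb.

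In TC4-2A cells UNC79 stood first with 0.168 ± 0.0330 CPM per kb. NALF1 (0.0456 ± 0.0129), UNC80 (0.0389 ± 0.0107) and NALCN (0.0359 ± 0.00817) followed, and each of these overlapped with its neighbour in the order. In TL4-2A cells the order was UNC79 (0.208 ± 0.0402), NALCN (0.0705 ± 0.0213), UNC80 (0.0519 ± 0.0133) and NALF1 (0.0249 ± 0.0105), in which only NALCN and UNC80 overlapped. NALCN made up 12.4% of the summed level per kb in TC4-2A cells but 19.8% in TL4-2A cells, and stood at 0.213 and 0.338 of the UNC79 level. UNC79 thus took the first place of the pore in both derived lines. Taking the longest annotated transcript as the length in place of merged exons, NALCN in TC4-2A cells stood second, at 0.0981 CPM per kb, above UNC80 at 0.0548 and NALF1 at 0.0456, since its merged exons (19.4 kb) are much longer than its longest transcript (7105 bases). On that length NALCN made up 22.8% of the summed level in TC4-2A and 33.4% in TL4-2A, at 0.424 and 0.672 of UNC79, which still stood first.

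Genes that overlap a member could share reads with it, because the strand setting of the counting is not given in the sources used here. NALCN-AS1, on the opposite strand at chr13:100708325-101059286, had 0 to 3 counts in any library, against at least 10 counts of NALCN. Of the genes overlapping UNC79, the lncRNA ENSG00000278396 was the only one tested. It had 6 to 15 counts per library and log2 fold changes of 0.00 (adjusted p = 0.999) and -0.18 (adjusted p = 0.729) in edgeR for TC4-2A and TL4-2A against T-REx cells. The genes overlapping NALF1 and UNC80 had at most 3 counts in any library.

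The genes around NALCN did not share its loss. Among the 10 nearest tested genes on each side, 6 were called higher against 1 lower in TC4-2A cells, and 7 higher against 1 lower in TL4-2A cells. DESeq2 called 5 and 4 of them higher, and 1 lower in each line. Their median log2 fold changes were 0.10 and 0.22, against 0.00 over all genes tested in both comparisons. Of all genes tested, edgeR called 14.2% higher and 14.6% lower in TC4-2A, and 21.9% and 22.5% in TL4-2A cells. By gene start, the nearest tested genes were the pseudogene COX5BP6 and TPP2, which encodes a large peptidase of the cytosol. COX5BP6 had 0.03 (adjusted p = 0.941) and 0.16 (adjusted p = 0.599 in edgeR). TPP2 was higher in both lines, by 0.26 (adjusted p = 2.19e-07) and 0.35 (adjusted p = 1.95e-10 in edgeR). The end of TMTC4 lies closer to NALCN than COX5BP6 does, with gaps of 379 and 429 kb. TMTC4 was higher in both lines, by 0.17 (adjusted p = 0.00365) and 0.22 (adjusted p = 0.000215 in edgeR). The single neighbour called lower was the lncRNA LINC00460, by -1.29 (adjusted p = 2.57e-05) and -0.96 (adjusted p = 0.000652 in edgeR). Over the 387 tested genes of chromosome 13 the medians were 0.18 in both lines, with 35.4% of genes higher and 5.17% lower in TC4-2A and 43.4% higher and 9.82% lower in TL4-2A cells. The fall of NALCN therefore ran against the direction of its chromosome.

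NALF1 shares 8 of its 20 neighbours with NALCN, LINC00460 among them. Of its neighbours 5 were higher against 1 lower in TC4-2A cells, and 11 higher against 1 lower in TL4-2A cells, with medians of 0.08 and 0.18. With DESeq2 the higher ones numbered 4 and 6, and the lower ones 1 in each line. The nearest were the lncRNA LINC00551, with 0.40 (adjusted p = 0.461) and 0.89 (adjusted p = 0.0371 in edgeR, 0.144 in DESeq2), and LIG4, a DNA ligase of end joining, with 0.09 (adjusted p = 0.238) and 0.05 (adjusted p = 0.478 in edgeR). Around UNC79, 3 neighbours were higher against 2 lower in TC4-2A cells, and 2 higher against 4 lower in TL4-2A cells, with medians of -0.02 and -0.07. DESeq2 called 3 higher and 1 lower there for TC4-2A, and 2 higher and 3 lower for TL4-2A. Over the 612 tested genes of chromosome 14, 9.97% were higher and 18.8% lower in TC4-2A, and 13.1% and 27.5% in TL4-2A cells (edgeR). Over all genes tested, edgeR called 14.2% higher and 14.6% lower in TC4-2A, and 21.9% and 22.5% in TL4-2A cells. BTBD7, which starts beside UNC79, had 0.01 (adjusted p = 0.906) and 0.08 (adjusted p = 0.182 in edgeR).

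The surroundings of UNC80 rose in TL4-2A cells. Of its 20 nearest tested neighbours, 15 were higher against 0 lower in TL4-2A cells (15 and 0 with DESeq2, and 0 lower at an unadjusted p under 0.05 in edgeR), with a median log2 fold change of 0.49, while in TC4-2A cells 1 was higher and 2 lower, with a median of -0.02. All 20 were lower in TC4-2A than in TL4-2A cells, from -1.29 to -0.14, and 16 were called. In that direct comparison 37.6% of the tested genes of chromosome 2 were called lower and 10.7% higher. Over all genes tested these shares were 17.8% and 17.6% (edgeR), so the direction was not particular to these neighbours. The nearest tested genes were MAP2, a microtubule protein of dendrites, with -0.40 (adjusted p = 0.000293) in TC4-2A and 0.89 (adjusted p = 1.35e-12) in TL4-2A cells, and RPE, an enzyme of the pentose phosphate pathway, with 0.10 (adjusted p = 0.120) and 0.67 (adjusted p = 9.39e-15 in edgeR). The lncRNA KANSL1L-AS1 rose most among the called neighbours in TL4-2A cells, by 1.00 (adjusted p = 5.38e-12 in edgeR). UNC80 itself, at 1.22, stood above all 20 neighbours, but the lower end of its interval, 0.51, lies beside their median. Over the 1310 tested genes of chromosome 2, TL4-2A cells had 39.0% higher and 14.3% lower, with a median of 0.14, while TC4-2A cells had 11.3% and 12.1%, with a median of 0.00. Over all genes tested, TL4-2A cells had 21.9% higher and 22.5% lower, and TC4-2A cells 14.2% and 14.6%. The part of the region in the UNC80 value was not tested.

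**Figure D3:**
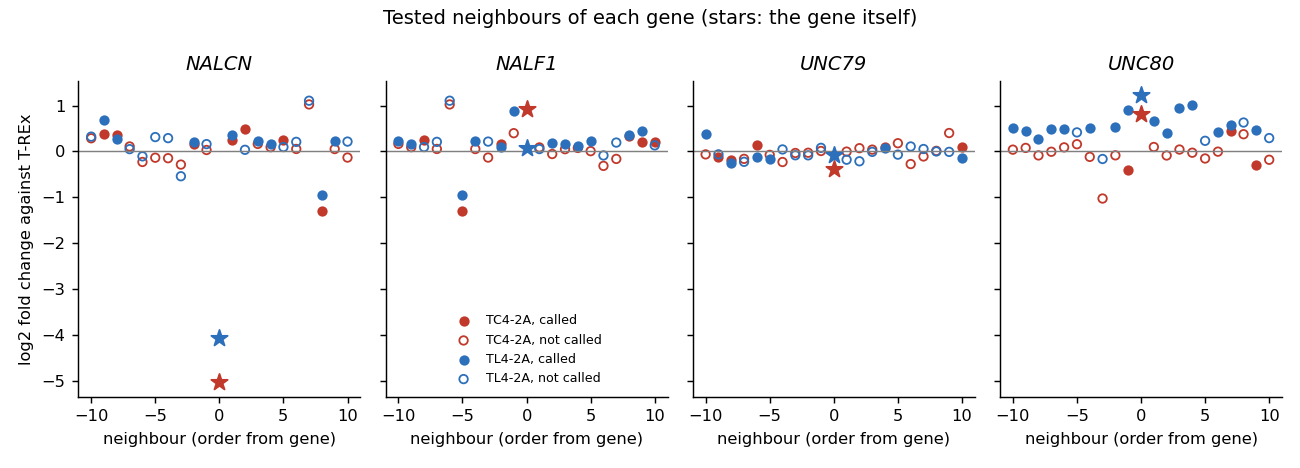
Log2 fold change against T-REx (vertical axis) of the 10 nearest tested genes on each side of each member, by their order from the gene (horizontal axis), with TC4-2A in red and TL4-2A in blue, filled where called, and stars for the member itself whether called or not. The NALCN stars (-5.03 and -4.07) lie far under their neighbours, while in TL4-2A cells the UNC80 star (1.22) tops a run of 15 called, higher neighbours.

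Genes that act with or beside the NALCN complex were taken from lists of 79 genes, of which 44 were tested. In TC4-2A cells 6 were higher and 11 lower (38.6%, against 28.8% of all genes tested), in TL4-2A cells 11 were higher and 12 lower (52.3%, against 44.3%), and between the lines 8 were higher against 10 lower in TC4-2A cells (40.9%, against 35.4%). NALF2, the relative of NALF1, was far more abundant than NALF1, with 21.6 ± 1.69 CPM in T-REx, 18.6 ± 0.568 CPM in TC4-2A and 21.6 ± 0.575 CPM in TL4-2A cells (SD, n = 3 each). It fell slightly in TC4-2A cells, by 0.22 on the log2 scale (adjusted p = 0.00884 in edgeR, 0.0652 in DESeq2), and had 0.00 in TL4-2A cells (adjusted p = 0.994 in edgeR). Per kb its T-REx level was 4.38 CPM, above that of NALCN itself.

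The voltage-gated sodium and calcium channels share with NALCN a pore of homologous domains. Of 20 listed, 11 were tested, and 2 were higher against 2 lower in TC4-2A cells, whereas 7 were higher against 2 lower in TL4-2A cells (medians -0.03 and 0.24). With DESeq2 these were 2 higher and 2 lower for TC4-2A, and 6 higher and 1 lower for TL4-2A. Over all genes tested, edgeR called 14.2% higher and 14.6% lower in TC4-2A, and 21.9% and 22.5% in TL4-2A cells. SCN2A, a sodium channel of axons, rose in TL4-2A cells by 1.25 (adjusted p = 3.16e-09) and had -0.34 in TC4-2A cells (adjusted p = 0.149). CACNA1C, an L-type calcium channel, rose in TL4-2A cells by 0.97 (adjusted p = 2.24e-17) and had -0.03 in TC4-2A cells (adjusted p = 0.742). CACNA1D, another L-type channel, rose in both lines, by 0.52 (adjusted p = 7.89e-06) in TC4-2A and 1.13 (adjusted p = 4.22e-14) in TL4-2A cells. CACNA1H, a T-type channel, rose in TC4-2A cells by 0.36 (adjusted p = 0.000274) and fell in TL4-2A cells by 0.73 (adjusted p = 9.66e-09, edgeR for all 4 genes).

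Of the other channels that conduct sodium, 13 of 20 were tested, with 4 higher against 1 lower in TC4-2A and 3 higher against 3 lower in TL4-2A cells (medians -0.01 and -0.04). With DESeq2 these were 2 higher and 0 lower for TC4-2A, and 2 higher and 2 lower for TL4-2A. Among all genes tested, edgeR called 14.2% higher and 14.6% lower in TC4-2A, and 21.9% and 22.5% in TL4-2A cells. SCN3B, an accessory subunit of sodium channels, was lower in both lines, at -0.40 (adjusted p = 0.0345, or 0.165 in DESeq2) and -1.17 (adjusted p = 3.11e-07). SCN4B, a related subunit, was higher in TC4-2A at 0.42 (adjusted p = 0.000651) and lower in TL4-2A cells at -0.66 (adjusted p = 6.24e-06). The acid-sensing channel ASIC3 was higher in both, at 0.32 (adjusted p = 0.0474, or 0.153 in DESeq2) and 0.60 (adjusted p = 9.69e-05), as was the lysosomal channel TPCN2, at 0.38 (adjusted p = 0.000256) and 0.54 (adjusted p = 6.88e-07, all by edgeR).

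Potassium leak channels oppose the sodium leak at rest, and 4 of the 15 listed were tested, with 1 lower and 0 higher in each line (medians -0.37 and -0.20). Shares over all genes tested were 14.6% lower and 14.2% higher in TC4-2A, and 22.5% and 21.9% in TL4-2A cells (edgeR). KCNK1 fell in TC4-2A cells by 0.41 (adjusted p = 1.17e-06) and had -0.05 in TL4-2A cells (adjusted p = 0.549). KCNK6 had -0.32 in TC4-2A cells (adjusted p = 0.0874) and fell in TL4-2A cells by 0.35 (adjusted p = 0.0486, or 0.171 in DESeq2). KCNK13 (-0.57 and -0.54) and KCNK5 (-0.07 and 0.00) were called in neither line by edgeR. At an unadjusted p under 0.05 in edgeR, and with DESeq2, 0 were higher in either line.

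The sodium pump removes the sodium that leaks in, and the exchangers of this list trade sodium for calcium. Of 11 genes described here 7 were tested, with 0 higher against 4 lower in TC4-2A cells, and 0 higher against 3 lower in TL4-2A cells (medians -0.17 and -0.24). The edgeR shares over all genes tested were 14.2% higher and 14.6% lower in TC4-2A, and 21.9% and 22.5% in TL4-2A cells. At an unadjusted p under 0.05 in edgeR, and with DESeq2, 0 were higher in either comparison with T-REx. The regulatory beta subunits of the pump were lower in both lines, ATP1B1 at -0.40 (adjusted p = 1.82e-08) and -0.68 (adjusted p = 7.14e-14) and ATP1B3 at -0.17 (adjusted p = 0.00110) and -0.11 (adjusted p = 0.0195). ATP1B2 had -0.29 (adjusted p = 0.00721) and -0.24 (adjusted p = 0.0206, or 0.0875 in DESeq2). The sodium-calcium exchanger SLC8A3 fell in TC4-2A cells by 0.88 (adjusted p = 0.00601) and had 0.27 in TL4-2A cells (adjusted p = 0.323, all by edgeR unless named).

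Of 12 receptors and kinases listed as upstream of NALCN, 8 were tested. Of these, 0 were higher against 2 lower in TC4-2A and 1 higher against 3 lower in TL4-2A cells (medians -0.12 and -0.17). Beside them, edgeR called 14.2% of all genes tested higher and 14.6% lower in TC4-2A, and 21.9% and 22.5% in TL4-2A cells. In TC4-2A cells 1 was higher at an unadjusted p under 0.05 in edgeR, and 0 with DESeq2. CHRM3, a muscarinic receptor, had 1.2004 ± 0.2002 CPM in T-REx, 0.865 ± 0.256 CPM in TC4-2A and 0.160 ± 0.0965 CPM in TL4-2A cells (SD, n = 3 each). In TL4-2A cells it fell by 2.91 on the log2 scale (adjusted p = 1.28e-06), to at most 4 counts in a library, and in TC4-2A cells it had -0.49 (adjusted p = 0.225). GABBR1, a subunit of the GABA-B receptor, rose in TL4-2A cells by 0.62 (adjusted p = 1.67e-12) and had 0.08 in TC4-2A cells (adjusted p = 0.288). The Src-family kinases FYN and YES1 were lower in both lines, FYN at -0.13 (adjusted p = 0.00296) and -0.25 (adjusted p = 4.53e-07) and YES1 at -0.39 (adjusted p = 1.26e-09) and -0.45 (adjusted p = 3.44e-11, all by edgeR).

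**Figure D4:**
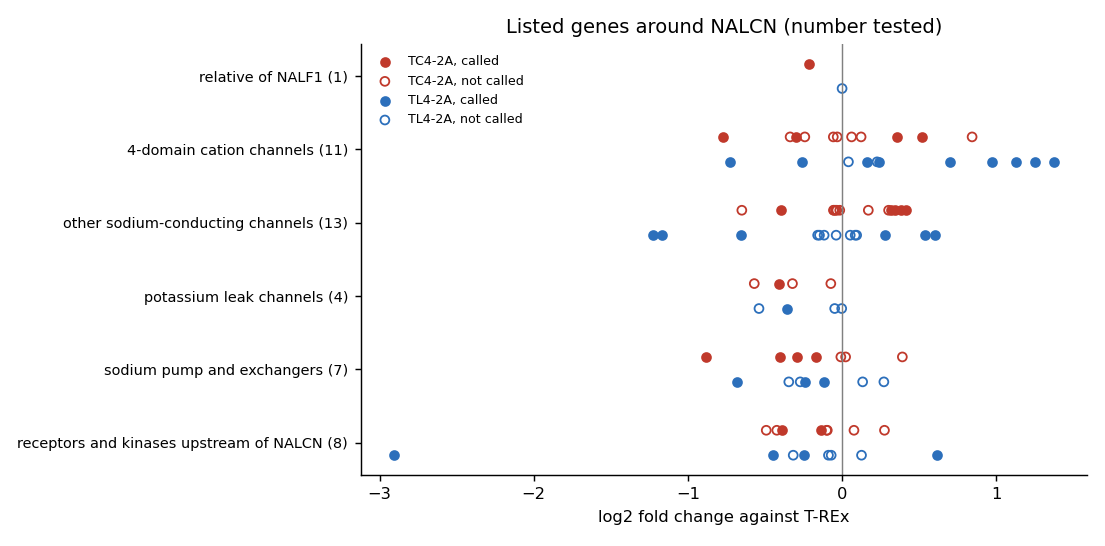
Log2 fold change against T-REx (horizontal axis) of every tested gene of the lists around NALCN, with TC4-2A in red, TL4-2A in blue and filled points for called genes. Most genes lie within 1 unit of 0. In TL4-2A cells 7 of 11 tested 4-domain channels are called higher, against 21.9% of all genes tested, while CHRM3 lies at -2.91.

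The 5 protein-coding genes whose profile came closest to that of NALCN were TENM1, SFRP2, IGFBPL1, RIPPLY3 and CIROP, by the Euclidean distance of log2 CPM centred on T-REx, over 9 libraries and among 13667 protein-coding genes. TENM1, a teneurin of the neuronal surface, was the closest (distance 1.33) and had 16.5 ± 1.52 CPM in T-REx, 0.634 ± 0.191 CPM in TC4-2A and 0.596 ± 0.106 CPM in TL4-2A cells (SD, n = 3 each). SFRP2, a secreted antagonist of Wnt signalling (distance 1.95), went from 2.99 ± 0.426 CPM to means of 0.0346 and 0.0202 CPM, both under the floor. IGFBPL1 (distance 2.9002) fell from 4.94 ± 0.582 CPM to 0 counts in every TC4-2A library and a mean of 0.0202 CPM in TL4-2A cells. RIPPLY3 (3.39) fell from 1.46 ± 0.347 CPM to means of 0.0816 and 0.0560 CPM. The derived-line means of IGFBPL1 and RIPPLY3 were under the floor too. The log2 CPM carried a prior count of 2, which narrows falls to such low levels. Fitted log2 fold changes were -6.22 and -6.84 for SFRP2 and -9.56 and -7.58 for IGFBPL1. For RIPPLY3 they were -4.01 and -4.49, and for NALCN -5.03 and -4.07. CIROP (3.63) had 5.53 ± 0.875 CPM in T-REx, 0.1499 ± 0.0466 CPM in TC4-2A and 1.21 ± 0.580 CPM in TL4-2A cells, so that, like NALCN, its mean was higher in TL4-2A than in TC4-2A cells. These genes lie on chromosomes X, 4, 9, 21 and 14, none on that of NALCN. By Pearson correlation in place of distance the nearest 5 were RSPO4, MFGE8, ADAM10, PHACTR1 and SDC2, with 0 genes shared, since a correlation ignores the size of the change. The 9 points of each profile fall into the 3 lines, so likeness here is mostly the shared drop from T-REx to the derived lines.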

How the data were processed

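RNA-seq of the 3 lines was used as the raw counts per gene that the authors deposited, made by mapping paired-end reads of rRNA-depleted libraries to GRCh38 with HISAT2 and counting Gencode v33 genes with featureCounts. Tool versions, the strand setting and the treatment of multi-mapped reads are not given here, nor is whether replicates were separate cultures. The p-values therefore cover the spread among these libraries alone, which may be technical. The authors' DESeq2 tables hold their own comparisons and were not used. Of the table, 60648 lines were used and 3 damaged lines left out. Positions and lengths came from Gencode v44, which held 60462 gene IDs (99.69%).

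Libraries were filtered with filterByExpr, scaled by TMM and fitted together in 1 quasi-likelihood model of cell line (edgeR 4.0.16, R 4.3.3). All comparisons were 2-sided and adjusted by Benjamini-Hochberg over all genes tested, and a gene was called at an adjusted p under 0.05. Intervals are 95% intervals of the model, and Poisson intervals and floors cover counting error only. The fit was repeated with DESeq2 1.42.0, with RLE scaling, without the filter, with a minimum of 10 counts per library, on the 2 lines of a comparison alone, with a replicate block, and leaving out each library in turn. Replicate numbers did not pair the libraries, since the correlations of same-numbered libraries lay between -0.029 and 0.030. Replicates differed by more than counting noise in every pair (chi-square over degrees of freedom 1.72 to 3.95).

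The members and the gene lists were chosen with earlier results of these data known. Named genes were the members and, in each list, the 4 tested genes with the smallest p in either comparison with T-REx. They also included the tested neighbours nearest by gene start, those called with over 2-fold change, and the 5 genes closest to NALCN in profile (log2 CPM with a prior count of 2). Gene lists are described by counts and medians only, and 2 genes left out of the list of the pump and exchangers are not reported here. Other steps used Python 3.11.15, pandas 2.3.3, scipy 1.17.1 and matplotlib 3.10.9.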

Additional observations from a re-analysis of the deposited data

Results flagged for a closer look

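Of the 4 members and the other genes named by rule, 34 were tested, and for 18 of them the direct comparison showed that TC4-2A and TL4-2A cells departed from T-REx cells by different amounts. The values are log2 differences of TC4-2A minus TL4-2A, by edgeR with p adjusted over all genes. Among the members this held for NALCN (-0.96), whose mRNA was nearly lost in both lines and lower in TC4-2A cells. NALF2, the relative of NALF1, had -0.22. Of the channels with homologous domains, SCN2A had -1.59, CACNA1C -1.003, CACNA1D -0.61 and CACNA1H 1.08. Among the other channels, SCN3B had 0.77, SCN4B 1.07 and KCNK1 -0.36. Of the pump and exchanger genes, ATP1B1 had 0.28 and SLC8A3 -1.15. Of the receptors and kinases, CHRM3 had 2.42, GABBR1 -0.54 and FYN 0.11. Among the named neighbours, TPP2 beside NALCN had -0.0889, and MAP2 (-1.29), RPE (-0.57) and KANSL1L-AS1 (-1.03) lie around UNC80. With DESeq2, 16 of the 18 kept the difference, while NALF2 (adjusted p = 0.0635) and TPP2 (adjusted p = 0.0961) did not. Over all genes 35.4% differed between the lines. The list genes were named for the smallest p against T-REx, and some neighbours for a change over 2-fold. A larger share among the 34 can follow from that choice alone and is not a result about these genes.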

How the results depend on the processing

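NALCN in TC4-2A minus TL4-2A cells and UNC79 in all 3 comparisons kept their side of the threshold under all 15 alternatives, and UNC80 in all 3 under the 14 that tested it, since it was not tested with at least 10 counts in every library. Apart from DESeq2 and the fit without the filter, these 14 used the filter that UNC80 passed through its derived-line counts. For UNC80 they are therefore not separate support. NALCN against T-REx, on which the set was selected, ranged from -5.21 to -4.88 in TC4-2A and from -4.24 to -3.86 in TL4-2A cells. Genes called over all genes, lowest with DESeq2, numbered 4007 to 5703 for TC4-2A against T-REx, 6592 to 8816 for TL4-2A against T-REx and 5108 to 6953 for TC4-2A against TL4-2A cells. With DESeq2, 13, 17 and 16 listed genes were called in place of 17, 23 and 18. With the replicate block, which rests on numbers that do not pair the libraries, NALCN had -0.96 for TC4-2A minus TL4-2A (adjusted p = 0.00671 in edgeR) and UNC80 1.22 in TL4-2A cells (adjusted p = 0.00544 in edgeR), and the block changed no call of a member. Leaving out libraries in turn, UNC79 in TL4-2A against T-REx cells ranged from -0.22 to 0.07 and was never called, the change of sign being without TL4-2A replicate 2. UNC80 in TL4-2A cells ranged from 1.05 to 1.40 and NALCN in TC4-2A minus TL4-2A from -1.17 to -0.79. With the longest transcript as the length, levels per kb were, in the order T-REx, TC4-2A, TL4-2A, 3.26, 0.0981 and 0.193 for NALCN, 0.303, 0.232 and 0.287 for UNC79 and 0.0314, 0.0548 and 0.0731 for UNC80, and those of NALF1, with 1 transcript, did not move. Depth limits NALF1 and UNC80 most, at 2 to 10 and 8 to 23 counts per library.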
